A study of Homo sapiens with 24 samples.

Results

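The apolipoprotein L (APOL) family consists of 6 genes, APOL1, APOL2, APOL3, APOL4, APOL5 and APOL6, that lie in a cluster on the long arm of human chromosome 22. The members were found among the 39321 genes of an RNA-Seq count table by matching each Ensembl gene identifier, without its version, to these symbols, and all 6 were present. Their levels were measured in 24 libraries of clear cell renal cell carcinoma cells kept with or without interferon gamma (IFNγ) and with or without silencing of PD-L1.

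A498 and 786-O are established human tumor lines of clear cell type, the most frequent form of kidney cancer. The study asked how PD-L1, the T cell checkpoint ligand encoded by CD274, affects the response of these tumor cells to IFNγ. Each line had 4 groups with 3 replicates each. The Cnsi group received a control siRNA at 20 nM by transfection and no IFNγ. In Cnsi IFNγ, the cells were transfected with the same control siRNA and, beginning 24 hours after transfection, received 50 ng/mL IFNγ for 24 hours. In PD-L1si, a pool of siRNAs against PD-L1 was used at 20 nM without IFNγ, and in PD-L1si IFNγ this pool was followed by 50 ng/mL IFNγ for 24 hours. All groups were therefore transfected, none was left without siRNA, and the silencing was transient although the labels speak of a knockout. A single dose and a single time were sequenced, and each line is a tumor line grown alone, without T cells. The labels do not say that the replicates were separate cultures, so the p-values measure the spread between these libraries, whose kind is not stated.

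Both sets of libraries have a limit that bears on all values below. By transcripts that distinguish the lines, 24 of 24 libraries did not match the labelled line. With 0 libraries unclear, each had the pattern of the other line. They are therefore called the libraries labelled A498 and the libraries labelled 786-O throughout, and comparisons within a label do not depend on the name. The names may have been exchanged in the table, and then each difference between labels given here has the opposite sign between the lines. In addition, 1475 genes had more than 1000 counts summed over the libraries labelled A498 and were listed at 0 in all 12 libraries labelled 786-O, against 35 genes the other way. APOL1 was among the 1475, together with IFNGR1, IFNGR2, JAK2, STAT3, MYH9, PAX2, NNMT, WT1 and APOLD1. Only 1.29 percent of the 1475 carried the same identifier version as GENCODE 44, against 71.0 percent of the 10433 genes with more than 1000 counts under both labels. A 0 for these genes is therefore given as listed at 0 and not as a lack of transcript, and since they held 13.6 to 14.4 percent of all counts in the libraries labelled A498, levels were not compared between the labels. The libraries labelled A498 and 786-O were also sequenced on different instruments, so line and instrument cannot be told apart. The study's texts name a stranded library kit and a strand setting of the counting whose match is uncertain, and the table has 93.5 to 95.2 percent of the counts of each library on protein-coding genes and 0.998 to 1.18 percent on genes named as antisense.

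APOL1 is the secreted member of the family. It travels on high-density lipoprotein particles, lyses African trypanosomes, and is the gene whose risk variants are linked to kidney disease in people of recent African ancestry. The other members lack a typical secretion signal and act inside the cell, where APOL3 permeabilizes the membranes of bacteria that guanylate-binding proteins have coated, APOL6 carries a BH3-like stretch and promotes cell death when overexpressed, and the roles of APOL2, APOL4 and APOL5 are less well described. Several members are known targets of interferons in endothelial and epithelial cells.

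Each library held between 19256316 and 27907526 counts under the A498 label and between 26807875 and 30350461 under the 786-O label. Levels are given as CPM, counts scaled to library size, after TMM normalization within a label, with means ± SD of 3 libraries. Differences are log2 fold changes ± SE, the SE being the absolute value over the square root of edgeR's quasi-likelihood F statistic. Where a group has few counts, as for APOL3, APOL4, GBP4 and UBD without IFNγ, this SE can be smaller than the counting error. The p-values of that test were adjusted by the Benjamini-Hochberg (BH) method over all genes tested. A gene was called higher or lower at an adjusted p under 0.05 and a log2 fold change above 0.5 or below -0.5. In bulk RNA, a change in the amount per cell and a change in the share of cells that express a gene cannot be told apart. APOL1 to APOL4 resemble each other in sequence, and how the counting kept or discarded reads that match more than a single member was not analysed here.

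The siRNA target CD274 was lower in every library with PD-L1 siRNA than in any library of the matching control group. In libraries labelled A498, CD274 stood at 3.99, 5.49 and 5.74 CPM in Cnsi and at 0.810, 1.01 and 0.926 in PD-L1si, and with IFNγ at 191, 199 and 191 in Cnsi and 26.9, 28.5 and 27.7 in PD-L1si. In libraries labelled 786-O, it stood at 3.87, 4.18 and 4.18 in Cnsi and at 1.46, 1.21 and 1.90 in PD-L1si, and with IFNγ at 55.7, 59.6 and 65.8 in Cnsi and 32.7, 30.8 and 30.6 in PD-L1si. No pair of these groups overlapped within a label. The log2 fold change with PD-L1 siRNA under IFNγ was -2.81 ± 0.05 under the A498 label and -0.94 ± 0.07 under the 786-O label (edgeR quasi-likelihood, BH-adjusted p = 1.6e-29 and 6.72e-10). The effect differed between the labels by 1.86 ± 0.09 on the log2 scale. PD-L1si cells with IFNγ still held more CD274 than Cnsi cells without IFNγ under both labels.

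IFNγ raised every APOL gene that could be tested, whereas PD-L1 siRNA left the levels reached under IFNγ within the fold threshold. With IFNγ in Cnsi cells, 5 of the 5 members tested were called higher under the A498 label, where 18.2 percent of all genes tested were called higher, and 4 of 4 under the 786-O label, where 11.1 percent were. With IFNγ in PD-L1si cells, the counts were again 5 of 5 (background 17.6 percent) and 4 of 4 (background 11 percent). APOL5 was below the count filter under both labels, APOL1 was listed at 0 under the 786-O label, and APOL4 passed the filter only through the groups with IFNγ, so that it could enter the test only by differing. Without APOL4, whose call carries no weight for that reason, 4 of 4 members were called higher under the A498 label and 3 of 3 under the 786-O label. These counts held in Cnsi and in PD-L1si cells. The median log2 fold change of these members with IFNγ in Cnsi cells was 2.72 under the A498 label and 3.23 under the 786-O label, beside -0.03 and 0.00 over all genes tested.

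**Figure D1:**
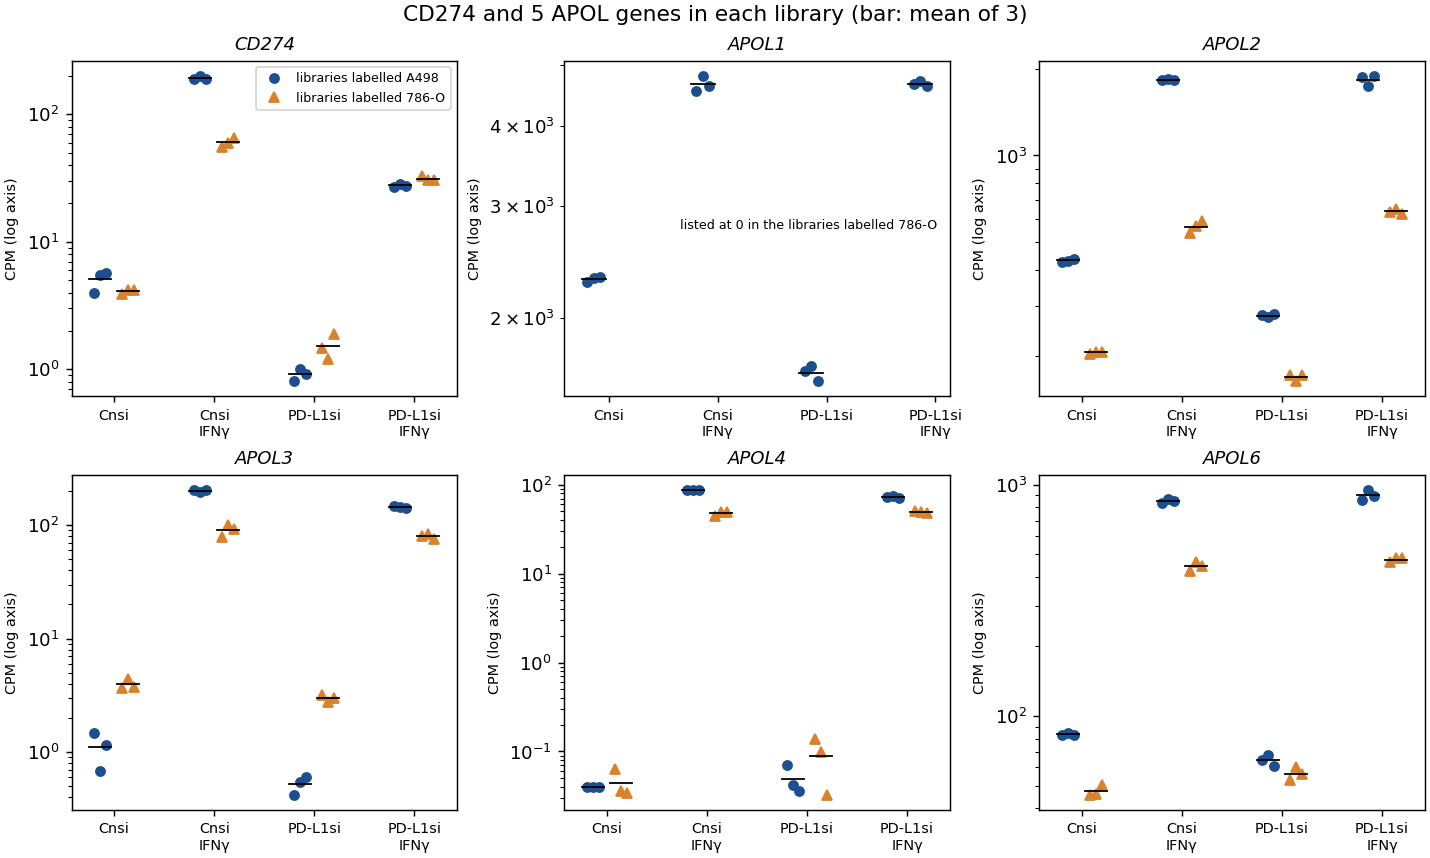
Level in CPM (log axis) of CD274 and of 5 APOL genes in each of the 24 libraries by group; circles are the libraries labelled A498, triangles those labelled 786-O, and bars are means of 3. APOL2, APOL3, APOL4 and APOL6 stood higher in each library with IFNγ than in any library of the same label without it, as APOL1 did under the A498 label; levels are not compared between labels.

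APOL1, the secreted trypanolytic factor, was the most abundant member per exon length under the A498 label in every group. Its levels were 2282, 2309 and 2321 CPM in Cnsi, 4546, 4793 and 4626 in Cnsi IFNγ, 1651, 1685 and 1595 in PD-L1si and 4659, 4715 and 4623 in PD-L1si IFNγ. The 3 libraries of PD-L1si were the lowest, those of Cnsi came next without overlap, and both groups with IFNγ stood above them and overlapped each other. IFNγ raised the mean from 2304 ± 20.0 to 4655 ± 126 CPM in Cnsi cells, 2.02-fold, with a log2 fold change of 1.01 ± 0.04 (edgeR quasi-likelihood, BH-adjusted p = 2.43e-23). In PD-L1si cells, which started lower at 1644 ± 45.5 CPM, the mean rose 2.84-fold to 4665 ± 46.3 CPM, a log2 fold change of 1.51 ± 0.04 (edgeR quasi-likelihood, BH-adjusted p = 2.07e-28). Of the 20916 genes tested, APOL1 ranked 2040 by its log2 fold change with IFNγ in Cnsi cells. The PD-L1 siRNA difference without IFNγ was -0.49 ± 0.04 on the log2 scale, just inside the fold threshold of 0.5 (edgeR quasi-likelihood, BH-adjusted p = 2.72e-13), and under IFNγ it was 0.00 with an interval of -0.07 to 0.07 (95 percent; edgeR quasi-likelihood, BH-adjusted p = 0.96). In the 12 libraries labelled 786-O, APOL1 was listed at 0, and no value is given there.

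APOL2, an intracellular member, was counted in all 24 libraries. Under the A498 label it stood at 426, 429.8 and 437 CPM in Cnsi, 1831, 1844 and 1833 in Cnsi IFNγ, 278, 274 and 279.8 in PD-L1si and 1871, 1744 and 1886 in PD-L1si IFNγ. The groups fell in the order seen for APOL1, with PD-L1si lowest, Cnsi above it, and both groups with IFNγ overlapping at the top. For the 786-O label the levels were 204, 208 and 207 in Cnsi, 539, 567 and 589.6 in Cnsi IFNγ, 173, 164 and 172 in PD-L1si and 638, 652 and 628 in PD-L1si IFNγ. Here no groups overlapped, and the order from low to high was PD-L1si, Cnsi, Cnsi IFNγ and PD-L1si IFNγ. The log2 fold change with IFNγ in Cnsi cells was 2.09 ± 0.04 under the A498 label and 1.45 ± 0.05 under the 786-O label (edgeR quasi-likelihood, BH-adjusted p = 3.83e-32 and 2.93e-19). In PD-L1si cells it was 2.72 ± 0.04 and 1.91 ± 0.05 (edgeR quasi-likelihood, BH-adjusted p = 2.31e-35 and 8.78e-22). APOL2 was called lower with PD-L1 siRNA without IFNγ under the A498 label, in 3 of 3 libraries, with a log2 fold change of -0.64 ± 0.04 (edgeR quasi-likelihood, BH-adjusted p = 1.06e-15). Under the 786-O label the difference was -0.28 ± 0.05, inside the fold threshold (edgeR quasi-likelihood, BH-adjusted p = 8.38e-05).

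APOL3, which acts on the membranes of intracellular bacteria, was close to the limit of counting without IFNγ and well counted with it. In libraries labelled A498 the counts were 37, 17 and 29 in Cnsi, 4882, 5040 and 4214 in Cnsi IFNγ, 12, 13 and 17 in PD-L1si and 3404, 2758 and 2930 in PD-L1si IFNγ. In CPM, the means were 1.10 ± 0.402, 201 ± 4.87, 0.525 ± 0.0933 and 145 ± 3.30 in the same order. No groups overlapped, and PD-L1si was the lower group of each pair, both without and with IFNγ. In libraries labelled 786-O the levels were 3.71, 4.40 and 3.77 CPM in Cnsi, 78.7, 101 and 92.8 in Cnsi IFNγ, 3.16, 2.78 and 3.02 in PD-L1si and 79.6, 84.4 and 75.4 in PD-L1si IFNγ. PD-L1si was again lowest and did not overlap Cnsi, while both groups with IFNγ overlapped. The log2 fold change with IFNγ in Cnsi cells was 7.50 ± 0.09 under the A498 label, 182-fold in means, and 4.52 ± 0.10 under the 786-O label, 22.9-fold (edgeR quasi-likelihood, BH-adjusted p = 1.62e-38 and 1.14e-20). Leaving out single libraries, the value under the A498 label ran from 7.25 to 7.77, a wider range than its SE. By this effect APOL3 ranked 42 of 20916 and 200 of 21209 genes tested. With PD-L1 siRNA and no IFNγ, APOL3 was called lower under the A498 label with a log2 fold change of -1.07 ± 0.26 from these low counts (edgeR quasi-likelihood, BH-adjusted p = 0.00131). Under IFNγ the difference was -0.47 ± 0.05, inside the fold threshold (edgeR quasi-likelihood, BH-adjusted p = 2.62e-10), and under the 786-O label the differences were -0.40 ± 0.14 without IFNγ and -0.19 ± 0.07 with it (edgeR quasi-likelihood, BH-adjusted p = 0.0651 and 0.0815). The value under IFNγ was -0.10 without Cnsi IFNγ replicate 2 and -0.28 without replicate 1 of that group (edgeR quasi-likelihood, BH-adjusted p = 0.37 and 0.00031).

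APOL4, another intracellular member, was all but uncounted without IFNγ. Under the A498 label it had 1, 1 and 1 counts in Cnsi and 2, 1 and 1 in PD-L1si, against 2076, 2256 and 1807 in Cnsi IFNγ and 1684, 1410 and 1464 in PD-L1si IFNγ. For the 786-O label it had 2, 1 and 1 in Cnsi and 4, 3 and 1 in PD-L1si, against 1246, 1328 and 1267 in Cnsi IFNγ and 1332, 1422 and 1317 in PD-L1si IFNγ. Each library without IFNγ held at most 4 counts and each library with it more than 1000. The ratio of scaled summed counts with IFNγ to those without, in Cnsi cells, was 2188 under the A498 label, with an exact (Clopper-Pearson) 95 percent interval of 748 to 10614, and 1057 under the 786-O label, with an interval of 412 to 3881. In PD-L1si cells the ratios were 1462 (571 to 5369) and 552 (280.0 to 1279.9). These intervals cover counting error only. Under IFNγ, where APOL4 was well counted, the PD-L1 siRNA difference was -0.26 ± 0.04 under the A498 label, inside the fold threshold although the groups did not overlap (edgeR quasi-likelihood, BH-adjusted p = 1.34e-05), and 0.04 ± 0.06 under the 786-O label, where they overlapped (edgeR quasi-likelihood, BH-adjusted p = 0.755). Whether PD-L1 siRNA altered APOL4 without IFNγ was not detectable at this depth.

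APOL5 was at or near 0 throughout. It had counts in 2 of the 12 libraries labelled A498, 1 in Cnsi IFNγ replicate 1 and 2 in PD-L1si IFNγ replicate 1, and in 1 of the 12 labelled 786-O, with 2 counts in Cnsi replicate 3. A count of 0 allows up to 3 counts, which is 0.107 to 0.156 CPM in a library labelled A498 and 0.0988 to 0.112 CPM in a library labelled 786-O. No library exceeded that limit, and no fold change is given.

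APOL6, the member with a BH3-like stretch, was counted in every group and stood higher in each library with IFNγ than in any library of the same label without it. In libraries labelled A498 the levels were 83.2, 84.4 and 82.5 CPM in Cnsi, 834, 868 and 853 in Cnsi IFNγ, 64.5, 68.2 and 60.7 in PD-L1si and 856, 949.7 and 893 in PD-L1si IFNγ. PD-L1si was lowest and did not overlap Cnsi, and both groups with IFNγ overlapped. Under the 786-O label the levels were 45.8, 46.1 and 50.5 in Cnsi, 424, 462 and 446 in Cnsi IFNγ, 52.9, 60.2 and 56.0 in PD-L1si and 461, 482 and 482 in PD-L1si IFNγ. In these libraries PD-L1si stood above Cnsi without overlap, the reverse of the order under the A498 label, and the groups with IFNγ overlapped. IFNγ raised APOL6 in Cnsi cells by a log2 fold change of 3.35 ± 0.05 under the A498 label and 3.23 ± 0.06 under the 786-O label, 10.2-fold and 9.36-fold in means (edgeR quasi-likelihood, BH-adjusted p = 4.59e-36 and 1.01e-24). In PD-L1si cells the values were 3.80 ± 0.05 and 3.07 ± 0.06 (edgeR quasi-likelihood, BH-adjusted p = 2.05e-37 and 2.21e-24). The PD-L1 siRNA differences without IFNγ, -0.37 ± 0.05 under the A498 label and 0.25 ± 0.06 under the 786-O label, both lay inside the fold threshold (edgeR quasi-likelihood, BH-adjusted p = 6.68e-08 and 0.00312).

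**Figure D2:**
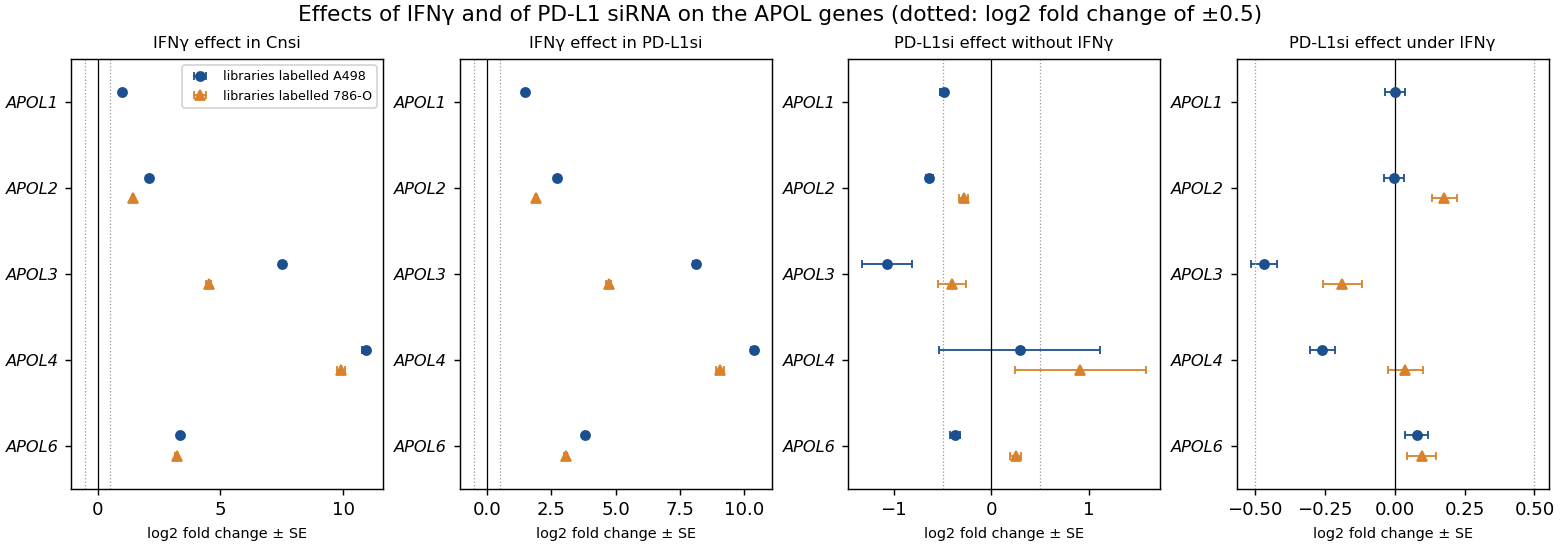
Log2 fold changes ± SE (from edgeR's F statistic) of the APOL genes tested, for the IFNγ effect in Cnsi and in PD-L1si cells and the PD-L1 siRNA effect without and under IFNγ. Circles are the libraries labelled A498, triangles those labelled 786-O, dotted lines the fold threshold of 0.5, and the horizontal scales differ between panels. Under IFNγ no member passed the fold threshold with PD-L1 siRNA. APOL4 without IFNγ rests on at most 4 counts per library, and its SE bars for the IFNγ effect do not cover that counting error.

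The PD-L1 siRNA comparisons ask whether silencing the ligand changes the family before and during exposure to IFNγ. Without IFNγ, 2 of 5 members tested, APOL2 and APOL3, were called lower and 0 higher under the A498 label, where 5.6 percent of all genes tested were called lower and 2.87 percent higher, and at an adjusted p under 0.05 with no fold threshold APOL1 and APOL6 were lower as well, 4 of 5 beside 18.1 percent of all genes lower at that cut. In libraries labelled 786-O, 0 of 4 members were called by edgeR and 0 by DESeq2, beside 2.81 percent of all genes tested, and 3 of the 4 had an unadjusted p under 0.05, as had 24.7 percent of all genes tested. APOL4 is among the members tested here, although its few counts without IFNγ meant that it could hardly be called. Without APOL4 the members called by edgeR were 2 of 4 under the A498 label and 0 of 3 under the 786-O label. Whether the effect without IFNγ differed between the labels was not tested. Under IFNγ 0 of 5 members were called under the A498 label (background 10.1 percent) and 0 of 4 under the 786-O label (background 3.03 percent), by edgeR and by DESeq2. Of these, 2 members under each label had an unadjusted p under 0.05, namely APOL3 and APOL4 under the A498 label and APOL2 and APOL3 under the 786-O label, beside 41.7 and 26.2 percent of all genes at that cut, so the 2 of 5 under the A498 label are near the background. In this comparison under IFNγ, APOL2 under the 786-O label was the single member with a positive difference at an adjusted p under 0.05, 0.18 ± 0.04 (edgeR quasi-likelihood, BH-adjusted p = 0.0072).

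The IFNγ effect and the PD-L1 siRNA effect without IFNγ share the Cnsi libraries, so a low or high Cnsi library moves both, and their values are given side by side only. The interaction of siRNA and IFNγ, the log2 IFNγ effect in PD-L1si cells minus that in Cnsi cells, was called for 1 of 5 members under the A498 label, where 2.45 percent of all genes tested were called. That member was APOL2, whose log2 IFNγ effect was 0.63 ± 0.05 larger with PD-L1 siRNA (edgeR quasi-likelihood, BH-adjusted p = 1.02e-10). The interaction of APOL1 was 0.49 ± 0.05 and that of APOL6 0.45 ± 0.06, both inside the fold threshold (edgeR quasi-likelihood, BH-adjusted p = 1.15e-08 and 3.71e-06). Without Cnsi IFNγ replicate 2 the interaction of APOL1 was 0.50 and past the threshold, and without Cnsi replicate 2 that of APOL3 was 0.86 and past it, while without Cnsi replicate 1 it was 0.34, against 0.60 ± 0.26 with all libraries (edgeR quasi-likelihood, BH-adjusted p = 0.169). For each of APOL1, APOL2 and APOL6, the PD-L1si libraries lay below the Cnsi libraries without IFNγ, and both groups overlapped with it. For the 786-O label, 0 of 4 members were called by edgeR and 0 by DESeq2 (background 0.099 percent), and 1 had an unadjusted p under 0.05 (background 8.12 percent at that cut), APOL2 at 0.46 ± 0.06 (edgeR quasi-likelihood, BH-adjusted p = 0.0013). The interaction of APOL4, -0.55 ± 0.87 under the A498 label and -0.87 ± 0.68 under the 786-O label, rests on at most 4 counts per library without IFNγ and was not called. With so few counts APOL4 could hardly be called, although it is among the members tested for the interaction.

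Differences between the labels were tested on the effects and not on the levels, as the effect under the 786-O label minus that under the A498 label in a model of all 24 libraries. For the IFNγ effect in Cnsi cells, 2 of 4 members tested were called, both lower, beside 11 percent of all genes tested, or 21.2 percent in either direction. The effect on APOL3 differed by -3.04 ± 0.19 on the log2 scale and the effect on APOL2 by -0.69 ± 0.06 (edgeR quasi-likelihood, BH-adjusted p = 4.63e-17 and 2.88e-13). The difference for APOL6 was -0.18 ± 0.08 and that for APOL4 -1.10 ± 0.93, neither called (edgeR quasi-likelihood, BH-adjusted p = 0.0722 and 0.522). APOL4 has few counts in Cnsi, so that it could hardly be called. For the PD-L1 siRNA effect under IFNγ, 0 of 4 members were called by edgeR and 0 by DESeq2, beside 3.95 percent of all genes tested, with 3 at an unadjusted p under 0.05 (background 21.3 percent at that cut) and values from 0.01 to 0.29. Genes listed at 0 under a label remained among all genes tested in this model, and APOL1 was not counted in it.

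Divided by the exon length of each gene, the levels can be set beside each other within a group. Under the A498 label APOL1 led in Cnsi with 666 CPM per kb, followed by APOL2 with 126, APOL6 with 8.28, APOL3 with 0.187 and APOL4 with 0.00901. In Cnsi IFNγ the order was the same, with 1346, 537, 84.6, 34.0 and 19.7 CPM per kb. The summed level of the family rose from 801 to 2022 CPM per kb, and the share of APOL1 in it went from 83.2 ± 0.0745 to 66.6 ± 0.508 percent (SD, n = 3) while that of APOL2 went from 15.8 ± 0.0874 to 26.6 ± 0.418 percent. Among the 20838 tested genes with a known length, APOL1 held rank 41 in Cnsi and rank 16 in Cnsi IFNγ by level per kb, and APOL2 rank 271 and rank 56. The family was thus led by APOL1 in all 4 groups under this label. Under the 786-O label, where APOL1 was listed at 0, APOL2 led with 60.3 CPM per kb in Cnsi and 165 in Cnsi IFNγ, and APOL6 came next with 4.72 and 44.1. APOL3 and APOL4 followed with 15.4 and 10.8 CPM per kb in Cnsi IFNγ. With PD-L1 siRNA the summed level was 563 without and 2016 with IFNγ under the A498 label.

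**Figure D3:**
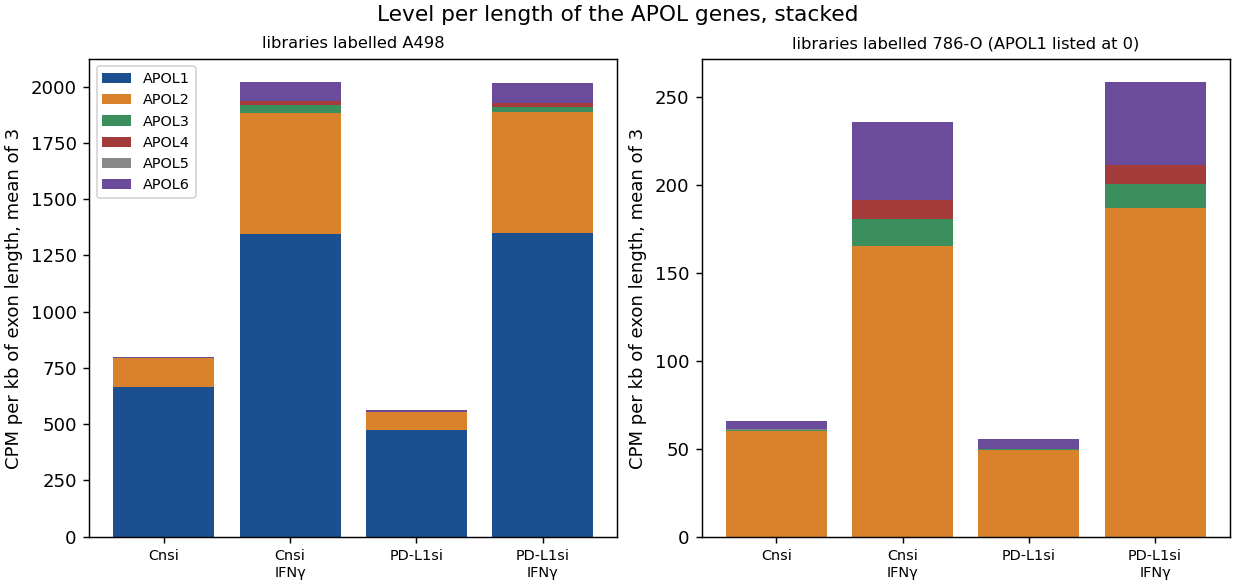
Stacked mean level of the APOL genes in CPM per kb of exon length (means of 3 libraries, no error bars) in the 4 groups of each label, with different vertical scales. In libraries labelled A498, APOL1 and APOL2 make up most of each column, and under the 786-O label, where APOL1 was listed at 0, APOL2 does.

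By GENCODE 44 on GRCh38, APOL3 (chromosome 22, 36140329 to 36166177, minus strand), APOL4 (36189124 to 36204840, minus strand), APOL2 (36226209 to 36239954, minus strand) and APOL1 (36253071 to 36267530, plus strand) adjoin each other, and APOL6 (35648446 to 35668404, plus strand) and APOL5 (35717872 to 35729483, plus strand) lie apart from them beyond RBFOX2, a splicing regulator. No other annotated gene overlaps any of the 6. The identifiers in the table were ENSG00000100342.20 for APOL1, ENSG00000128335.14 for APOL2, ENSG00000128284.19 for APOL3, ENSG00000100336.17 for APOL4, ENSG00000128313.2 for APOL5 and ENSG00000221963.6 for APOL6. A list of 15 neighbouring genes was set beside the family, of which 14 were in the table (PVALB was not). With IFNγ in Cnsi cells, 11 neighbours were tested under the A498 label, and 1 was called higher and 4 lower, with a median of -0.34, beside 3817 higher and 3871 lower of all 20916 genes tested. The higher gene was TOM1, an endosomal sorting protein, at 0.58 ± 0.05, and the lower genes were HMOX1, heme oxygenase 1, at -0.77 ± 0.07, RASD2 at -0.73 ± 0.12, the mitochondrial thioredoxin TXN2 at -0.59 ± 0.05 and the translation factor subunit EIF3D at -0.71 ± 0.04. MYH9, the nonmuscle myosin gene next to APOL1, had 2302 CPM in Cnsi and 2916 in Cnsi IFNγ, a log2 fold change of 0.34 ± 0.04, inside the threshold. In libraries labelled 786-O, 12 neighbours were tested, and 0 were called higher and 2 lower, HMOX1 at -0.60 ± 0.05 and RASD2 at -0.63 ± 0.12, with a median of -0.04, beside 2347 higher and 1567 lower of all 21209 genes tested. MCM5, a subunit of the replicative helicase, had values of 0.04 ± 0.04 and -0.18 ± 0.04, and EIF3D under the 786-O label 0.07 ± 0.05. For EIF3D and TOM1, the IFNγ effect differed between the labels by 0.72 ± 0.07 and -0.61 ± 0.07, and both differences were called, as was that of HMOX1 for PD-L1 siRNA under IFNγ (0.66 ± 0.09). Of all genes tested, 21.2 percent were called for the difference in the IFNγ effect and 3.95 percent for that in PD-L1 siRNA under IFNγ. RBFOX2, named here for its place between APOL5 and APOL3, had values of 0.24 ± 0.04 and 0.12 ± 0.05 and was not called under either label. With IFNγ in PD-L1si cells 1 neighbour was called higher and 2 lower under the A498 label, beside 3675 higher and 3333 lower of all 20916 genes. Under the 786-O label the counts were 0 and 2, beside 2332 and 1580 of all 21209 genes. With PD-L1 siRNA, RASD2 without IFNγ (-0.88) and MYH9 under IFNγ (-0.56) were called lower under the A498 label, beside 1172 and 1202 of all 20916 genes, and HMOX1 was called higher under the 786-O label both without (1.02) and under IFNγ (0.93), beside 252 and 274 of all 21209 genes. The interaction was called for 1 neighbour under the A498 label, RASD2 (0.59 ± 0.18), beside 2.45 percent of all genes tested.

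**Figure D4:**
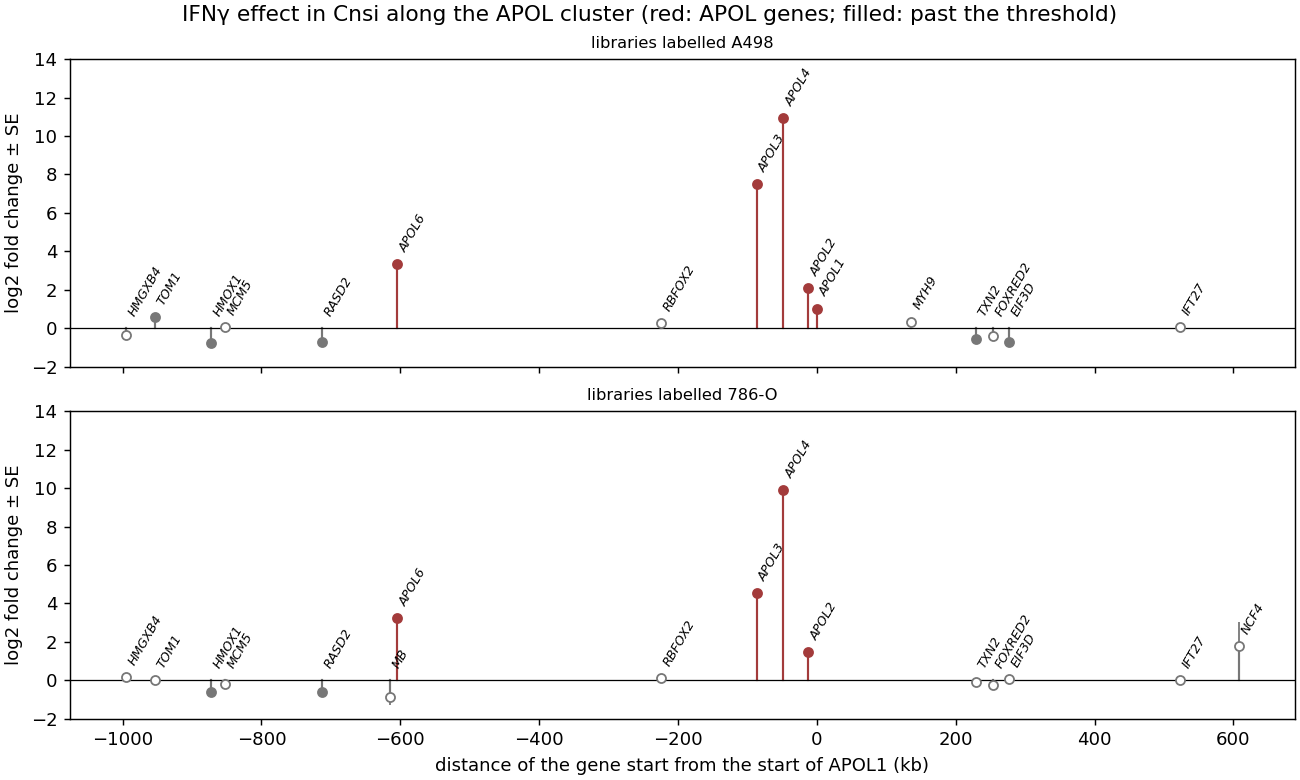
Log2 fold change ± SE with IFNγ in Cnsi cells for each tested gene of the APOL cluster and its neighbours, against the distance in kb of its start from the start of APOL1. Red marks APOL genes, grey neighbours, and filled points passed the threshold. The SE bars of APOL4 do not cover the counting error of its few Cnsi counts. The APOL genes stand between 1.01 and 10.92 under the A498 label, the latter APOL4 with 1 count in each Cnsi library, and above TOM1, the highest neighbour there at 0.58, while under the 786-O label the neighbour NCF4, with 1 count in Cnsi and 4 in Cnsi IFNγ, stands at 1.79 ± 1.26, not called, above APOL2 at 1.45.

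Genes that transmit the IFNγ signal or act with the family were described from fixed lists. Of 12 IFNγ signalling genes, 12 were tested under the A498 label, and 10 were called higher and 0 lower with IFNγ in Cnsi cells, with a median of 1.68, beside 18.2 percent of all genes called higher. Among the 12 were IRF1, an interferon-induced transcription factor, at 4.62 ± 0.04, and the receptor kinase JAK1 at -0.17 ± 0.04, which was not called. For the 786-O label, 5 of the 12 were listed at 0, and 6 of the other 7 were called higher and 0 lower (background 11.1 percent higher), among them IRF1 at 4.77 ± 0.06 and STAT2 at 2.37 ± 0.06, with JAK1 at -0.33 ± 0.06. With PD-L1 siRNA without IFNγ, IRF1 was the 1 gene of the 12 called lower under the A498 label (-0.86 ± 0.05, background 5.6 percent lower), and SOCS1, a feedback inhibitor, the 1 of 7 called higher under the 786-O label (0.88 ± 0.16, background 2.81 percent in either direction). Under IFNγ 0 were called with PD-L1 siRNA under either label by edgeR, with medians of -0.20 and 0.11, beside 10.1 and 3.03 percent of all genes called. The interaction was called for IRF1 (0.65 ± 0.06) and for SOCS3, another feedback inhibitor (-0.71 ± 0.07), under the A498 label (background 2.45 percent). The IFNγ effect differed between the labels for SOCS1 (-0.73 ± 0.29) and SOCS3 (-0.82 ± 0.15), and the PD-L1 siRNA effect under IFNγ for SOCS3 (0.68 ± 0.14), beside 21.2 and 3.95 percent of all genes.

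All 5 guanylate-binding proteins, the interferon-induced GTPases that coat bacteria for APOL3, were called higher with IFNγ in Cnsi cells under both labels, where 18.2 and 11.1 percent of all genes were. The medians were 6.59 under the A498 label and 4.97 under the 786-O label. GBP1 rose from 46.6 ± 1.51 to 4483 ± 64.2 CPM and from 53.1 ± 3.24 to 1662 ± 50.0 CPM, with log2 fold changes of 6.59 ± 0.05 and 4.97 ± 0.06. GBP2 changed by 4.89 ± 0.05 and 4.08 ± 0.05, GBP3 by 3.06 ± 0.05 and 2.80 ± 0.06, and GBP4 by 9.29 ± 0.08 and 8.01 ± 0.09. GBP5 rose from 0.345 to 2369 CPM and from 0.422 to 499 CPM. With PD-L1 siRNA without IFNγ, 4 of the 5 were called lower under the A498 label, beside 5.6 percent of all genes, GBP1 at -1.30 ± 0.05, GBP3 at -0.72 ± 0.05, GBP4 at -1.33 ± 0.22 and GBP5 at -2.38 ± 0.51, and 0 under the 786-O label. These 4 are set beside APOL2 and APOL3, which were called lower in the same comparison, and no relation between them was tested. The interaction was called for the same 4 genes, beside 2.45 percent of all genes, from 0.59 for GBP3 to 2.09 for GBP5. In both comparisons GBP5 rests on few counts, with 0.345 CPM in Cnsi and 0.0633 in PD-L1si under the A498 label. The IFNγ effect was called smaller under the 786-O label for GBP1 (-1.67), GBP2 (-0.87), GBP4 (-1.33) and GBP5 (-2.58), beside 11 percent of all genes. Under IFNγ 0 of 5 were called with PD-L1 siRNA under either label, with medians of -0.26 and -0.10, beside 10.1 and 3.03 percent of all genes called.

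Of 7 genes described as partners of APOL1 or APOL3, 4 were tested under each label. UBD, an interferon-induced ubiquitin-like modifier, was called higher with IFNγ in Cnsi cells under the A498 label, from 0.252 ± 0.121 to 25.3 ± 2.34 CPM, a log2 fold change of 6.62 ± 0.18, beside 18.2 percent of all genes called higher. Under the 786-O label, where UBD passed the filter only through the groups with IFNγ, it had 0 counts in Cnsi and 615 in Cnsi IFNγ, at least 226-fold higher against a floor of 3 counts over the group. VAMP8, a vesicle fusion protein, was called higher under the 786-O label (0.56 ± 0.05) and not under the A498 label (-0.06 ± 0.05), and the difference between the labels was 0.57 ± 0.07 (edgeR quasi-likelihood, BH-adjusted p = 6.94e-09). Of all genes tested, 11.1 percent were called higher with IFNγ under the 786-O label, and 21.2 percent were called for the difference between labels. With PD-L1 siRNA under the A498 label, VAMP8 was called lower without IFNγ (-0.73 ± 0.05) and with it (-0.76 ± 0.05), as was the calcium sensor NCS1 (-0.53 ± 0.04 and -0.65 ± 0.04), beside 1172 and 1202 of all 20916 genes called lower. UBD also differed between the labels, at 3.90 ± 1.14 (edgeR quasi-likelihood, BH-adjusted p = 0.00508), a fitted value that rests on its 0 counts in Cnsi under the 786-O label and is no bound. The kinase PI4KB was not called in any of the 4 comparisons under either label.

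Of 16 other apolipoproteins, 12 were in the table and 6 were tested under each label. With IFNγ in Cnsi cells, CLU, the secreted chaperone clusterin, was called higher under both labels, at 0.74 ± 0.05 from a mean of 38.4 CPM and at 0.87 ± 0.12 from 221 CPM. APOE and APOH were called lower under the A498 label at -1.39 ± 0.47 and -1.81 ± 0.52, both from means under 1 CPM. Of all genes, 3817 were called higher and 3871 lower of 20916 under the A498 label, and 2347 higher of 21209 under the 786-O label. APOM, at 7.05 and 6.03 CPM in Cnsi, had values of -0.18 ± 0.11 and -0.04 ± 0.13. The difference between the labels in the IFNγ effect was called for APOE (1.40 ± 0.52) and APOH (1.56 ± 0.55), beside 21.2 percent of all genes. Both differences rest on the same low levels under the A498 label. With PD-L1 siRNA, APOH was called higher without IFNγ under both labels (0.97 and 0.54), and APOE was called higher under IFNγ under the A498 label (1.31). Under the A498 label these calls also rest on means under 1 CPM, APOH from 0.412 to 0.825 and APOE from 0.172 to 0.461. All genes called higher were 601 of 20916 and 252 of 21209 without IFNγ, and 911 of 20916 under IFNγ with the A498 label. APOC3 under the A498 label passed the filter only through PD-L1si IFNγ, with 13 counts against 3 in Cnsi IFNγ, so that it could enter the test only by differing, and its calls are not counted here. APOLD1, a related gene of endothelial cells on another chromosome, had 11.0 CPM in Cnsi and 8.11 in Cnsi IFNγ under the A498 label, a difference of -0.44 ± 0.09 that was not called, and was called lower with IFNγ in PD-L1si cells (-0.69 ± 0.09).

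For APOL2, APOL3, APOL4 and APOL6, the genes with the most similar pattern over the 8 group means were found among 12587 genes, by the root mean square difference of log2 CPM after each label was centred on its Cnsi mean. For APOL6 they were PSMB10 (0.11), a subunit of the immunoproteasome, CASP1 (0.14), the inflammatory caspase, and PARP14 (0.15). For APOL2 the nearest were SP100 (0.14) and IFI16 (0.14), a sensor of nuclear DNA. The patterns nearest to APOL3 were farther away, SERPING1 (0.39), a complement inhibitor, the gene ENSG00000286548 (0.47) and CMPK2 (0.48). Those nearest to APOL4 were ENSG00000254287 (0.62), GBP4 (0.68) and ENSG00000237568 (0.78), where the few counts of APOL4 without IFNγ enter the distance. PSMB10 had log2 fold changes with IFNγ in Cnsi cells of 3.34 and 3.23 beside 3.35 and 3.23 for APOL6.

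Markers of cell types were read for the whole lists. Of 7 markers of renal epithelium and its carcinoma, VIM was the most abundant, and their summed level was 3633 to 4248 CPM in the libraries labelled A498 without IFNγ and 4593 to 5415 with it. In the libraries labelled 786-O it was 2359.6 to 2699 and 3419 to 3815 CPM, with PAX2 and NNMT listed at 0. PAX8, a defining transcription factor of renal epithelium, had 198 and 214 CPM in Cnsi. The 4 podocyte markers summed to 1071 to 1478 CPM without and 1985 to 2670.0 with IFNγ under the A498 label, and to 721 to 911 and 631 to 992 under the 786-O label, nearly all of it from SYNPO, which many cells express, while the defining NPHS1 was at 0 in all libraries labelled A498. SYNPO was called higher with IFNγ in Cnsi cells under the A498 label (0.81 ± 0.05), as were NNMT (0.97) and KRT18 (0.60), while CDH16 (-1.35) and WT1 (-1.07) were called lower. Of all 20916 genes, 3817 were called higher and 3871 lower there. In the same comparison under the 786-O label, VIM (0.68) and KRT18 (0.69) were called higher and CA9 (-1.08) lower, beside 2347 higher and 1567 lower of 21209 genes. With PD-L1 siRNA under IFNγ, CDH16 was called higher (1.05) and PAX8 lower (-0.77) under the A498 label, and CDH16 (0.69) and CA9 (0.70) higher under the 786-O label. Of all genes, 911 were higher and 1202 lower under the A498 label, and 274 higher under the 786-O label. Without IFNγ, CDH16 (0.66 and 0.77) and CA9 (1.34 and 0.74) were called higher with PD-L1 siRNA under both labels, beside 601 of 20916 and 252 of 21209 genes. CA9, a target of the hypoxia pathway, had 0.730 CPM in Cnsi under the A498 label and 17.5 under the 786-O label. The part of these markers in the APOL values was not tested. Endothelial markers summed to at most 0.0776 CPM in any library labelled A498 and 1.69 in any labelled 786-O, with PECAM1 the most abundant under the 786-O label, where PECAM1, with 14 counts in Cnsi and 57 in Cnsi IFNγ, was called higher with IFNγ. KDR, with 1 and 22 counts, passed the filter there only through the groups with IFNγ, so that it could enter the test only by differing, and its call is not counted. Leukocyte markers summed to at most 0.349 and 2.00 CPM, most of it CD68, with PTPRC at 0 in Cnsi under the A498 label and 0.0787 CPM under the 786-O label.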

How the data were processed

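RNA-Seq of 24 libraries was read from a table of gene counts that the authors deposited. Per the submitters' notes, reads passed through bcl2fastq 2.19.0, Trimmomatic 0.36.6, HISAT2 2.1.0 and featureCounts 1.6.3 on GRCh38. Counts were not altered. In R 4.3.3, edgeR 4.0.16 with limma 3.58.1 fitted 4 group means per label (TMM, robust quasi-likelihood F-test), for genes with at least 10 summed counts in at least 1 group, and 8 group means for differences between labels. All p-values were Benjamini-Hochberg adjusted over all genes tested. DESeq2 1.42.0, RLE scaling, filterByExpr, no filter on low counts, protein-coding genes alone, the groups of each contrast alone, a replicate block, other fold thresholds and leaving out each library were tried. A repeat with genes counted under both labels was chosen after seeing the data. The fit was also tried on simulated data, whose outcome is not given and is not used here. Names, positions and lengths came from GENCODE 44, while the study used release 33.

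The members and lists were chosen with earlier results of these data known. From each list (a relative, cluster neighbours, IFNγ signalling, guanylate-binding proteins, partners of APOL1 or APOL3, other apolipoproteins) the text names the 3 genes with the highest mean level, any gene called against the majority, and every called gene where at most 5 were called. Some genes that this rule takes are not reported here. Of the marker lists, CD3E was not in the table. Promoter motifs were not analysed here, since no sequences of these genes were at hand. Total counts per library ran from 19256316 to 30350461. Replicates differed by more than sampling noise in all 24 pairs (chi-square over its degrees of freedom, 1.63 to 24.3).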

Additional observations from a re-analysis of the deposited data

Results flagged for a closer look

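In the libraries labelled A498, the log2 IFNγ effect on APOL2 was 0.63 larger in PD-L1si than in Cnsi cells, by the test of the interaction. The IFNγ effect on APOL2 in Cnsi cells differed between the labels by -0.69 on the log2 scale (labelled 786-O minus labelled A498), by the test of that difference. The effect on APOL3 differed by -3.04 in the same test. With the genes listed at 0 under either label left out, a repeat chosen after seeing the data, 2 of 4 members were still called for this difference, beside 5175 of 21584 genes. Line and instrument cannot be told apart in the last 2.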

How the results depend on the processing

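Among alternative counts of APOL members called, 274 were within 1.5 times the value reported and 12 were not, and among alternative log2 fold changes 1121 kept their direction and side of the threshold, 2 passed it anew and 17 reversed. With the adjusted p alone, PD-L1 siRNA called 2 of 5 members under IFNγ and 4 without it under the A498 label, beside 7122 and 6452 of 20916 genes tested, and 1 and 2 of 4 under the 786-O label, beside 2974 and 2721 of 21209. The interaction called 3 and 1 members, beside 1900 and 46 genes, and the difference between labels in the PD-L1 siRNA effect under IFNγ called 2 of 4, beside 2606 of 24126. These larger counts follow from the dropped fold threshold. With a log2 fold change over 1, PD-L1 siRNA without IFNγ under the A498 label called 1 member, beside 553 of 20916 genes, the interaction under that label 0, beside 119, and the difference between labels in the IFNγ effect 1, beside 2215 of 24126. Leaving out single libraries, the interaction under the A498 label called 1 to 2 members.

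The directions that reversed were all of values that were not called. The PD-L1 siRNA difference of APOL1 under IFNγ, labelled A498, was -0.0075 with RLE, -0.0075 with DESeq2 and -0.0083 with no filter, and -0.018 to 0.025 leaving out libraries. That of APOL2 was 0.0027 with filterByExpr and 0.00025 with the groups of the contrast alone, and -0.022 to 0.034 leaving out libraries. Leaving out libraries, APOL4 without IFNγ, labelled A498, ran from -0.026 to 0.49, APOL4 under IFNγ, labelled 786-O, from -0.011 to 0.068, and the difference between labels for APOL6 under IFNγ from -0.030 to 0.061. The cause was not tested.

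Replicate numbers were not taken to pair the libraries, since 9 of 36 same-number pairs had a correlation over 0.1, with a range from -0.224 to 0.243. Of 24 libraries, 12 correlated best with their own number, where 8 are expected by chance, and the mean correlation was 0.037 with the same number and -0.019 with another under the A498 label, and 0.042 and -0.021 under the 786-O label, so a weak tie between numbers is not excluded. The replicate block changed no call, with 5, 5, 0, 2 and 1 members called under the A498 label, 4, 4, 0, 0 and 0 under the 786-O label, and 2 and 0 between labels.

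Over all genes, the interaction under the 786-O label called 21, but 47 with no filter. It called 10 without Cnsi replicate 1, 13 without Cnsi replicate 2, 40 without Cnsi IFNγ replicate 1, 8 without PD-L1si replicate 3, 11 without PD-L1si IFNγ replicate 1 and 11 without replicate 2 of that group. Depth limits APOL5 and, without IFNγ, APOL4, and 3 libraries a group limit all tests.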
